A study of Homo sapiens with 12 samples.

Results

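The cholesterol synthesis genes AACS, ACAT2, CYP51A1, DHCR7 and EBP were examined in A375, an established human melanoma cell line. The 5 genes were taken by symbol from the 4918 genes analysed here, all with symbols from A1BG to FAM46B, and all 5 were found. They had been put together with results of these data known, and the comparison behind the choice is not recorded. DHCR7 was already known as one of the largest falls with SB-3CT alone, so the genes are treated as selected on the measured log2 differences of SB-3CT against control, and these are given as a description, without a test.

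Cells were left without treatment (control), treated with SB-3CT, an inhibitor of the gelatinases MMP2 and MMP9, treated with interferon gamma (IFN-γ in the labels, IFNγ below), or treated with both. Total RNA was taken after 24 h and sequenced in 3 samples per group, 12 in all. The labels mention a vehicle beside SB-3CT but list the controls as treated with none, and all samples come from 1 cell line. The labels do not say that the 3 samples of a group were separate cultures, so p-values measure the spread between samples, which may be technical. Levels are FPKM, the fragments assigned to a gene divided by its transcript length and by the fragments mapped in the sample, so genes can be compared per length. Differences are on the deposited scale, log2(FPKM + 1), where the added 1 makes changes of low genes look smaller. In bulk RNA, fewer cells that express a gene and less of its RNA per cell cannot be told apart.

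The labels were first checked against marker genes. Of 7 melanocyte and neural crest genes in the table, 6 had a mean of at least 1 FPKM, with DCT, a pigment enzyme gene, the exception at 0.154 FPKM, and their summed level was 127 to 131 FPKM in controls, 98.7 to 108 FPKM with SB-3CT, 96.0 to 99.5 FPKM with IFNγ and 70.8 to 75.7 FPKM with both. The same order of groups is described below for DHCR7. Of the 7, 4 were called lower in each of the 4 comparisons of 2 groups, but the 4 were not the same throughout. Over all genes, 6.87% were called lower with SB-3CT and 11.0% with IFNγ, each against control. With both agents it was 31.5% against IFNγ and 32.7% against SB-3CT. FABP7 was called lower with SB-3CT against control (-0.92), but its log2 difference with both agents against IFNγ was 0.37. ERBB3, a receptor gene among those called, had means of 57.1, 45.5, 43.6 and 30.9 FPKM in controls, SB-3CT, IFNγ and both. CSPG4 had 48.5, 41.9, 37.1 and 27.7 FPKM, so ERBB3 and CSPG4 made up most of the summed level. EDNRB was higher with IFNγ (6.67 FPKM) than in controls (5.83 FPKM). BCAN was higher with SB-3CT (5.33 FPKM) than in controls (4.87 FPKM). None of the 7 was called higher in these comparisons. The part of these genes in the results below was not tested. None of 7 markers of other cell types reached 1 FPKM, and their summed level was 0.469 to 0.648 FPKM without IFNγ, 1.01 to 1.22 FPKM with IFNγ and 0.554 to 0.905 FPKM with both. CXCL10, a chemokine gene induced by IFNγ, was at 78.7 FPKM or more in all samples given IFNγ and at 0.050 FPKM or less in all others. The number of reads per sample is unknown, but the depth relative to the mean of the controls ran from 87.2% to 150%. The 3 samples with both agents stood apart in scale. Their median ratios to the geometric mean of all samples were 0.865 to 0.874, against 0.987 to 1.09 in the other 9 samples. Their summed FPKM over the genes analysed was not lower but higher, 128299 to 129692 against 121928 to 126550 in the other 9 samples.

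Cells make cholesterol from acetyl-CoA in the cytosol and the endoplasmic reticulum. ACAT2 joins acetyl-CoA into acetoacetyl-CoA, and AACS makes the same product from the ketone body acetoacetate. Acetoacetyl-CoA enters the mevalonate pathway, which leads through squalene to lanosterol. CYP51A1 then removes a methyl group from lanosterol, EBP shifts a double bond in the sterol ring, and DHCR7 reduces 7-dehydrocholesterol to cholesterol. When sterols run low, transcription factors of the SREBP family raise many genes of this pathway together. The SREBP genes lie outside the genes analysed here.

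In hg19, the canonical transcripts span 125549981 to 125627862 on chromosome 12 for AACS (plus strand, 18 exons, 3256 bases), 160183077 to 160200144 on chromosome 6 for ACAT2 (plus strand, 9 exons, 1520 bases), 91741467 to 91763791 on chromosome 7 for CYP51A1 (minus strand, 10 exons, 3155 bases), 71145457 to 71159439 on chromosome 11 for DHCR7 (minus strand, 9 exons, 2627 bases) and 48380196 to 48387104 on chromosome X for EBP (plus strand, 5 exons, 1125 bases). The exons of ACAT2 share 454 bases with TCP1 on the other strand, and strand use in counting is not stated, so reads there cannot be assigned with certainty. Exons of CYP51A1 and EBP also overlap same-strand gene models without a symbol in the annotation, by up to 2844 and 642 bases, and none of the overlapping genes was in the table.

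RefSeq promoters, from 250 bases before to 50 bases after a start site, were matched for 4 of the 5 genes (build GRCh38.p14), with a pair of starts for DHCR7. The bases before the start are shown for DHCR7 (chr11:71448394-71448643, minus strand) and CYP51A1 (chr7:92134478-92134727, minus strand), which were lower together in each comparison below, and for EBP (chrX:48521558-48521807, plus strand), whose groups differed least. Capitals mark CCAAT (or ATTGG, its other strand) and GGGCGG (or CCGCCC, its other strand).
DHCR7 promoter: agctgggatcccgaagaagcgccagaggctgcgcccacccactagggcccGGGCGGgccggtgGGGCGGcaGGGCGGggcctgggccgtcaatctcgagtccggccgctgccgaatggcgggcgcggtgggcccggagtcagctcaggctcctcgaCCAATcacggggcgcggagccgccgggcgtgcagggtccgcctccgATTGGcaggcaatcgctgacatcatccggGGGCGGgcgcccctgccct
CYP51A1 promoter: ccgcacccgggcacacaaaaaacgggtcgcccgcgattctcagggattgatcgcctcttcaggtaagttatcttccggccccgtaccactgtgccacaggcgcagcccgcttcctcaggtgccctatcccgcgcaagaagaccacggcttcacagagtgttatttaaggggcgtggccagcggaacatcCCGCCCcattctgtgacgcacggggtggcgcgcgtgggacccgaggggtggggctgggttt
EBP promoter: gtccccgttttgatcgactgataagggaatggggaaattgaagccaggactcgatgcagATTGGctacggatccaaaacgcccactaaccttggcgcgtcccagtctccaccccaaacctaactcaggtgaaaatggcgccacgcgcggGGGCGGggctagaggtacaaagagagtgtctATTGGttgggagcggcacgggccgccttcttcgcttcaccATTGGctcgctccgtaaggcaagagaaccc

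DHCR7 had 2 CCAAT and 4 GGGCGG matches at the start shown and none at its other start. CYP51A1 had 1 GGGCGG match, EBP had 3 CCAAT and 1 GGGCGG, and AACS had 3 GGGCGG. Of 35116 promoters of this length, 34.6% held CCAAT and 45% held GGGCGG. The letters TCACNCCAC, a sterol regulatory element, were found on either strand in 1.13% of them and in none of the 5 promoters of these genes, which says only that these letters are not in the windows searched. The motifs did not overlap each other.

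DHCR7, the last enzyme of the pathway, had the widest range of the 5 genes. It was at 19.8, 18.8 and 21.1 FPKM in control samples 1 to 3, at 10.3, 10.1 and 9.86 FPKM with SB-3CT, at 9.92, 9.76 and 10.01 FPKM with IFNγ, and at 6.81, 5.47 and 5.96 FPKM with both. Every control sample was above every treated sample, the single treatments overlapped, and all 3 samples with both agents were below the rest. With SB-3CT alone, the mean was 0.508 of the control mean in FPKM, and the log2 difference was -0.91 (SE 0.06). Among 3177 genes with a mean of at least 1 FPKM, DHCR7 held place 7 from the lowest difference. It was already known as one of the largest falls of this comparison, so this place is no test. With IFNγ, DHCR7 fell by 0.94 (SE 0.05) on the log2 scale against control (limma, adjusted p = 0.000135), to 0.498 of the control mean. The controls are those of the SB-3CT comparison, so this p-value is not free of the choice of genes. With both agents it fell by 0.63 (SE 0.08) against IFNγ alone (adjusted p = 0.00247) and by 0.65 (SE 0.08) against SB-3CT alone (adjusted p = 0.00179).

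CYP51A1, the lanosterol demethylase, had the same order of groups at a lower level. It was at 11.7, 12.4 and 14.1 FPKM in controls, at 10.3, 9.03 and 9.64 FPKM with SB-3CT, at 9.20, 8.03 and 9.68 FPKM with IFNγ, and at 6.22, 5.94 and 5.76 FPKM with both. The controls were above all other samples, SB-3CT and IFNγ alone overlapped, and the samples with both agents were lowest with a narrow spread. The log2 difference of SB-3CT against control was -0.36 (SE 0.08). CYP51A1 fell by 0.46 (SE 0.09) with IFNγ against control (adjusted p = 0.0180). That call rested on the controls: the adjusted p was 0.0624 without control replicate 2 and 0.0618 without control replicate 3. It fell by 0.51 (SE 0.08) with both agents against IFNγ (adjusted p = 0.00379) and by 0.61 (SE 0.06) against SB-3CT (adjusted p = 0.00113). Its antisense gene CYP51A1-AS1 had group means of at most 0.0364 FPKM.

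ACAT2, the cytosolic thiolase, showed smaller differences of the same kind. It was at 36.9, 37.1 and 36.7 FPKM in controls, at 31.9, 29.7 and 28.6 FPKM with SB-3CT, at 31.5, 29.3 and 30.1 FPKM with IFNγ, and at 25.2, 26.5 and 25.6 FPKM with both. As for DHCR7 and CYP51A1, the controls were highest, the single treatments overlapped, and the samples with both agents were lowest. The log2 difference of SB-3CT against control was -0.29 (SE 0.05). ACAT2 fell by 0.28 (SE 0.04) with IFNγ against control (adjusted p = 0.00587) and, on the deposited scale, by 0.23 (SE 0.05) with both agents against IFNγ (adjusted p = 0.0119) and by 0.21 (SE 0.05) against SB-3CT (adjusted p = 0.0173). The last call was lost without SB-3CT + IFNγ replicate 1 (adjusted p = 0.0536) or replicate 3 (adjusted p = 0.0573), and median ratio scaling turned both of the last differences to 0.02 and 0.04.

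AACS, acetoacetyl-CoA synthetase, differed from these in its level with SB-3CT alone. It was at 14.96, 14.2 and 13.6 FPKM in controls, at 16.8, 15.9 and 15.3 FPKM with SB-3CT, at 13.2, 10.6 and 11.3 FPKM with IFNγ, and at 9.87, 9.50 and 9.03 FPKM with both. All SB-3CT samples were above all controls, all IFNγ samples were below them, and the samples with both agents were below those with IFNγ. The log2 difference of SB-3CT against control was 0.15 (SE 0.06). The difference of IFNγ against control was -0.27 (SE 0.09) and did not pass (adjusted p = 0.0764), although it did under each of 3 other scalings (adjusted p 0.0138 to 0.0481) and without IFNγ replicate 1 (adjusted p = 0.0223). With both agents, AACS fell by 0.70 (SE 0.05) against SB-3CT (adjusted p = 0.000462). Against IFNγ it was lower by a log2 difference of -0.27 (SE 0.09, adjusted p = 0.0425), a call lost in 5 of the 6 fits that left out 1 sample (adjusted p 0.0786 to 0.142) and in all 3 other scalings, where the difference was -0.03 to -0.05 (adjusted p 0.603 to 0.811). IFNγ replicate 2 was the sample whose removal kept it.

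EBP, the sterol isomerase, had the highest level of the 5 genes and the smallest differences. It was at 49.0, 48.9 and 49.6 FPKM in controls, at 55.9, 53.1 and 54.0 FPKM with SB-3CT, at 44.2, 45.1 and 46.2 FPKM with IFNγ, and at 48.0, 43.6 and 52.1 FPKM with both. The SB-3CT samples were highest and the IFNγ samples lay below the controls, while the samples with both agents overlapped the controls and the IFNγ samples. The log2 difference of SB-3CT against control was 0.14 (SE 0.04). The log2 difference was -0.12 (SE 0.04) for IFNγ against control (adjusted p = 0.0636), 0.08 (SE 0.07) for both agents against IFNγ (adjusted p = 0.426, 95% interval -0.08 to 0.24) and -0.18 (SE 0.07) for both agents against SB-3CT (adjusted p = 0.0752). None of these differences passed the threshold, although the last did without SB-3CT + IFNγ replicate 3 (-0.24, adjusted p = 0.0321), in a joint fit of all groups (adjusted p = 0.0199) and among genes with a mean of at least 1 FPKM alone (adjusted p = 0.0345), the second did as higher after median ratio scaling (0.33, adjusted p = 0.0193), and the first did without the variance trend (adjusted p = 0.0493).

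**Figure D1:**
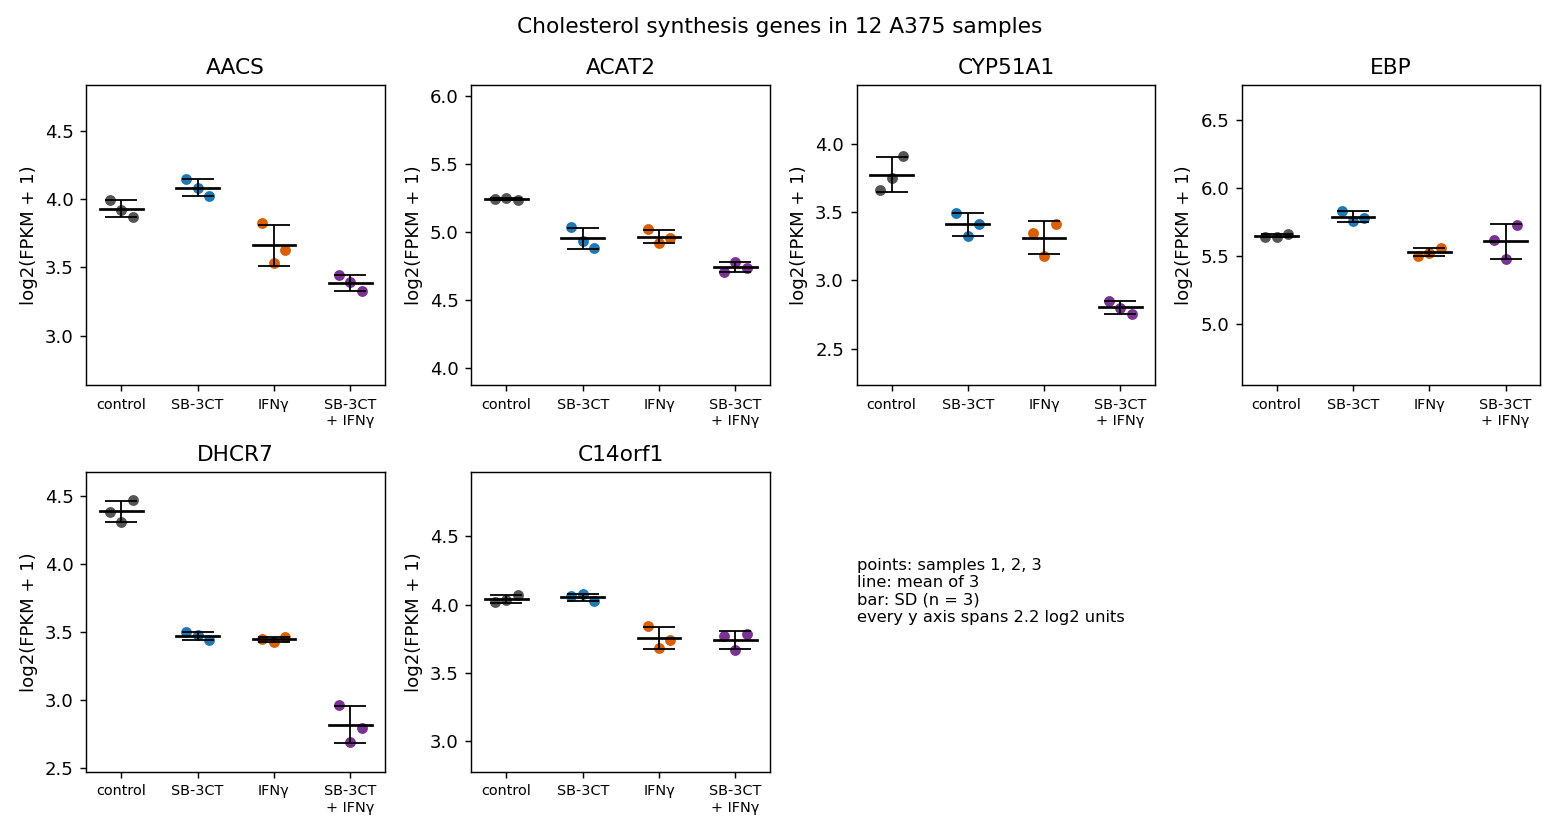
Deposited log2(FPKM + 1) values of the 5 genes and of C14orf1 in each of the 12 samples, by group, with the mean and SD of 3 samples; every vertical axis spans the same number of log2 units. Controls lie above all other samples for ACAT2, CYP51A1 and DHCR7, and the samples with both agents lie lowest for these genes and AACS, while EBP stays between 5.48 and 5.83 in all samples.

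Among the other sterol synthesis genes listed, C14orf1 is described beside the 5. C14orf1, also called ERG28, is thought to hold sterol synthesis enzymes together at the endoplasmic reticulum. It was at 15.2 to 15.8 FPKM in controls, 15.3 to 15.9 FPKM with SB-3CT, 11.8 to 13.3 FPKM with IFNγ and 11.7 to 12.8 FPKM with both, so on the deposited scale its groups separated by IFNγ and not by SB-3CT. With both agents against IFNγ it was called higher after median ratio scaling (0.22, adjusted p = 0.0175) and quantile normalization (0.19, adjusted p = 0.04997), against -0.01 as deposited. C14orf1 fell by 0.29 (SE 0.06) with IFNγ against control (adjusted p = 0.0166) and by 0.31 (SE 0.05) with both agents against SB-3CT (adjusted p = 0.00377). The first call was lost without IFNγ replicate 3 or any 1 of the controls (adjusted p 0.0554 to 0.0708), and the second after median ratio scaling (log2 difference -0.07, adjusted p = 0.400).

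Lower RNA of these genes with SB-3CT, in cells that also had IFNγ, was looked for in 6 samples. SB-3CT against control did not use these samples. Results of this comparison were known too, so its p-values and counts are not free of the choice of genes either. DHCR7, CYP51A1, AACS and ACAT2 were lower with both agents than with IFNγ alone, and EBP did not differ beyond its spread. Called lower were 4 of the 5 genes and called higher 0, against 31.5% of the 4918 genes called lower and 6.41% called higher, so lower calls were common in the whole table. The median log2 difference of the 5 genes was -0.27, against -0.09 over all genes and -0.20 over the 3177 genes with a mean of at least 1 FPKM. In 4 of the 5 genes all samples with both agents were below all samples with IFNγ, as they were in 39.6% of all genes. Relative to the median of -0.20, DHCR7 and CYP51A1 were further down and ACAT2 lay close to it. Among the 3177 genes, DHCR7 held place 244 and CYP51A1 place 495 from the lowest difference.

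IFNγ alone was compared with control to ask how the cytokine by itself moved these genes, using the same 3 controls as the SB-3CT comparison. The genes are treated as selected on differences from these controls, so p-values and counts against them are not free of that choice. A gene known as a large fall may have high control values, which favours a fall here too. The comparison of both agents with SB-3CT likewise reuses the SB-3CT samples. In all 5 genes every IFNγ sample was below every control, a separation shown by 22.0% of all genes, and DHCR7, CYP51A1 and ACAT2 passed the test. Called lower were 3 of the 5 genes, against 11.0% of all genes, and 8.46% of all genes were called higher. The median log2 difference of the 5 genes was -0.28, against -0.02 over all genes. DHCR7 held place 16 of 3177 from the lowest difference. In cells that had SB-3CT, adding IFNγ gave lower values of all 5 genes with no overlap between the groups, a separation shown by 41.9% of all genes in this direction. The test called 4 of the 5 lower, AACS (-0.70), DHCR7 (-0.65), CYP51A1 (-0.61) and ACAT2 (-0.21), against 32.7% of all genes called lower and 7.85% called higher. The median log2 difference of the 5 genes was -0.61, against -0.11 over all genes.

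SB-3CT alone against control is treated as used by the choice of genes. There, 3 of the 5 genes had all treated samples below all controls and 2, AACS and EBP, had all treated samples above them. Over all genes, 19.7% had groups separated downward and 14.2% upward, and 6.87% were called lower and 5.37% higher, which is 338 and 264 genes. Without any 1 sample other than SB-3CT replicate 1, these counts were 30 to 38 lower and 41 to 58 higher. The log2 difference of SB-3CT in the presence of IFNγ minus that in its absence, over all 12 samples, was -0.43 (SE 0.10) for AACS, -0.15 (SE 0.11) for CYP51A1, -0.06 (SE 0.08) for EBP, 0.06 (SE 0.07) for ACAT2 and 0.28 (SE 0.10) for DHCR7. After median ratio scaling, quantile normalization and removal of the length trend it was -0.23, -0.21 and -0.22 for AACS, 0.27, 0.21 and 0.09 for ACAT2, and 0.47, 0.53 and 0.44 for DHCR7. These are a description, without a test, and the median over the 3177 genes was -0.19. AACS thus had SB-3CT differences of opposite sign, 0.15 without and -0.27 with IFNγ on the deposited scale, whereas for DHCR7 both were negative and the one without IFNγ was the larger. In the same fit, 17.6% of all genes were called lower and 4.74% higher.

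**Figure D2:**
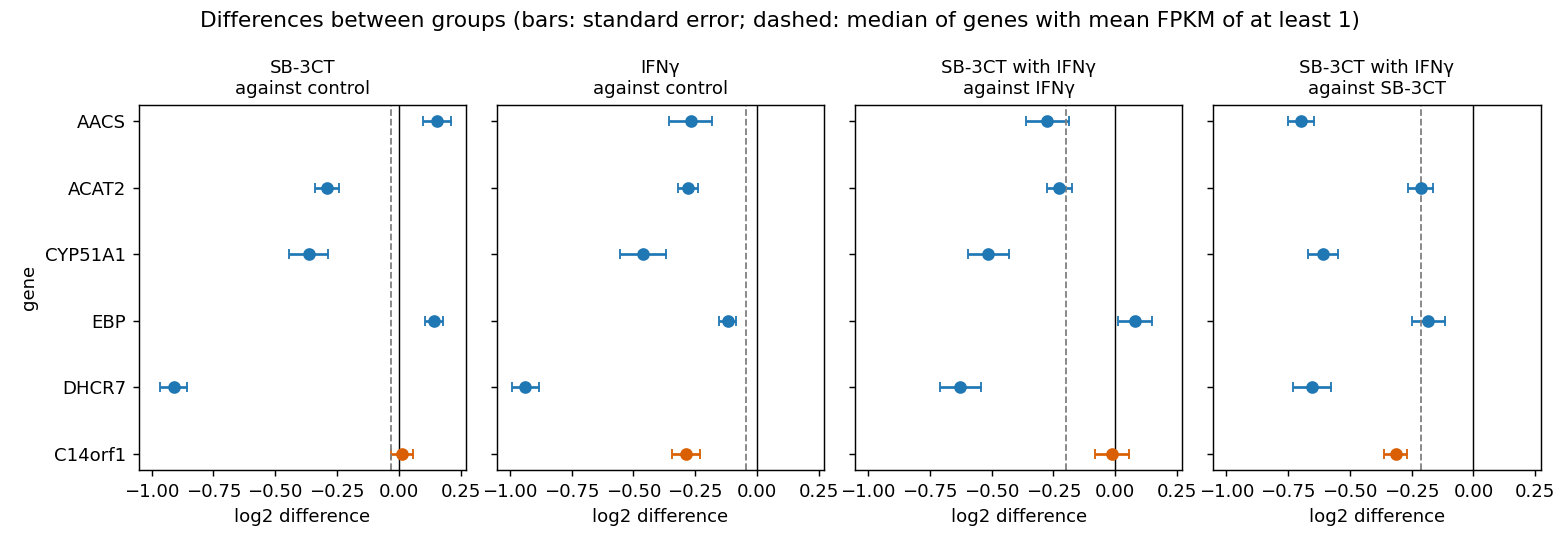
Log2 differences of the 5 genes (blue) and of C14orf1 (orange) in 4 comparisons, with standard errors; the dashed line is the median of genes with a mean of at least 1 FPKM. DHCR7 reaches -0.91 with SB-3CT and -0.94 with IFNγ, and in the comparisons of SB-3CT with IFNγ the dashed line itself lies at -0.20 and -0.21.

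The shift of the whole table in the samples with both agents made scaling matter for the smaller differences. Against IFNγ alone, the median log2 difference also followed transcript length: among 4 equal classes it was 0.08 in the class with the shortest transcripts (249 to 1880 bases, which holds EBP and ACAT2), -0.16 and -0.30 in the middle classes and -0.41 in the class with the longest. The values were therefore rescaled in 3 ways: division by each sample's median ratio, quantile normalization, and removal of each sample's trend with length while its summed FPKM was kept. Over the whole table, 315 genes called higher and 1547 called lower became 811 and 760 after median ratio scaling, 542 and 714 after quantile normalization, and 395 and 563 after removal of the length trend. DHCR7 remained lower and past the test in each (-0.40, -0.35 and -0.45, adjusted p 0.0109 to 0.0232), and so did CYP51A1 (-0.29, -0.24 and -0.28, adjusted p 0.0150 to 0.0330). AACS lost its call in all 3 (-0.04, -0.05 and -0.03, adjusted p 0.603 to 0.811). ACAT2 kept its call only after removal of the length trend (-0.22, adjusted p = 0.0166), with 0.02 and -0.11 under the other scalings. EBP passed as higher after median ratio scaling (0.33, adjusted p = 0.0193), with 0.17 and -0.03 under the others. Against SB-3CT alone, AACS, CYP51A1 and DHCR7 stayed past the test in each scaling, while ACAT2 did in none. The counts over all genes there went from 386 higher and 1608 lower to 675 and 504 after median ratio scaling. For IFNγ against control, DHCR7, CYP51A1 and ACAT2 stayed lower and past the test in each, while the counts went from 416 higher and 542 lower to 596 and 500 after median ratio scaling.

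**Figure D3:**
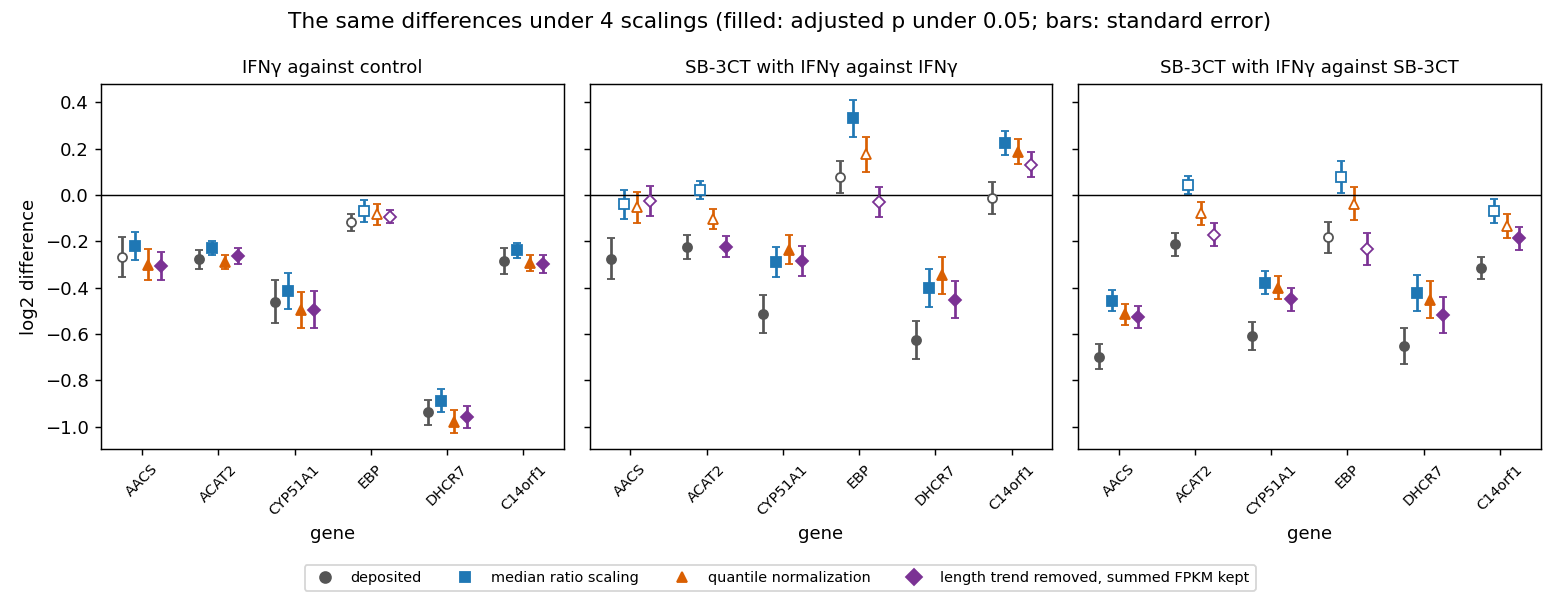
Log2 differences with standard errors of the 5 genes and C14orf1 in 3 comparisons on the deposited scale and under 3 rescalings; filled symbols have an adjusted p under 0.05. DHCR7 and CYP51A1 are below 0 and filled under every scaling, while ACAT2, EBP and C14orf1 change sign between scalings in the middle panel.

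Around the pathway, enzymes that supply acetyl-CoA moved in both directions. Of 7 genes of acetyl-CoA and acetoacetate supply, 1 was called lower with SB-3CT (6.87% of all genes). With IFNγ, 1 was called lower and 1 higher (11.0% and 8.46% of all genes). With both agents against IFNγ, 2 were called lower (31.5% of all genes). The last count became 0 lower and 2 higher after median ratio scaling, 1 and 2 after quantile normalization, and 0 and 1 after removal of the length trend. ACLY, which cuts citrate to acetyl-CoA, had means of 55.3 FPKM in controls, 59.3 FPKM with SB-3CT, 50.8 FPKM with IFNγ and 40.2 FPKM with both. It fell by 0.55 (SE 0.05) with both agents against SB-3CT (adjusted p = 0.000643), while its difference against IFNγ, -0.33 (adjusted p = 0.0162), was 0.01 after removal of the length trend. ACAT1, the mitochondrial thiolase, fell by 0.40 (SE 0.05) with IFNγ (adjusted p = 0.00254) and by 0.25 (SE 0.07) with SB-3CT (adjusted p = 0.0495). ACSS1, a mitochondrial acetyl-CoA synthetase, rose by 0.42 (SE 0.07) with IFNγ (adjusted p = 0.0104) and stayed past the test in each scaling. With both agents, ACSS3 was lower than with IFNγ (-0.31, adjusted p = 0.0222) but was called in none of the rescalings, and BDH1, a ketone body enzyme, was lower than with SB-3CT (-0.38, adjusted p = 0.00479) and was called in 1 of the 3.

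Fatty acid enzymes, which SREBP factors also raise, were all called lower with both agents against IFNγ, 6 of 6, with a median log2 difference of -0.38, against 31.5% of all genes called lower and a median of -0.20 over genes with a mean of at least 1 FPKM. They were ELOVL6 (-0.66, adjusted p = 0.00418), ACACA (-0.51, adjusted p = 0.00413), FADS1 (-0.42, adjusted p = 0.00392), ELOVL5 (-0.34), FADS2 (-0.33) and ACACB (-0.19), enzymes that make malonyl-CoA (ACACA, ACACB), lengthen fatty acids (ELOVL5, ELOVL6) or desaturate them (FADS1, FADS2). The count was 3 after median ratio scaling, 3 after quantile normalization and 0 after removal of the length trend. With SB-3CT alone only ELOVL6 was called (-0.39, SE 0.08, adjusted p = 0.0288), also in each scaling, and with IFNγ alone only ACACA (-0.32, SE 0.08, adjusted p = 0.0352), also in each scaling. Over all genes, 6.87% were called lower with SB-3CT and 11.0% with IFNγ.

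Of 3 genes of sterol sensing and of protein degradation at the endoplasmic reticulum, 1 was called higher with SB-3CT, 1 higher with IFNγ and 1 lower with both agents against IFNγ, against 5.37% and 8.46% of all genes called higher and 31.5% called lower. AUP1, a lipid droplet protein gene, rose by 0.32 (SE 0.05) with SB-3CT (adjusted p = 0.0152), with means of 89.5 FPKM in controls and 112 FPKM with SB-3CT. ERLIN1, whose product binds cholesterol at the endoplasmic reticulum, rose by 0.43 (SE 0.07) with IFNγ (adjusted p = 0.00704) and fell by 0.57 (SE 0.07) with both agents against IFNγ (adjusted p = 0.00211). Its means were 16.4, 14.95, 22.6 and 14.86 FPKM in controls, SB-3CT, IFNγ and both. These results of AUP1 and ERLIN1 held in each scaling. ERLIN2 (-0.30) was called lower with both agents against SB-3CT, but was called in none of the rescalings.

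Efflux genes, which carry cholesterol out of the cell, were called lower with IFNγ in 3 of 6 cases, against 11.0% of all genes, of which ABCG1 and ABCG4 had means of at most 0.340 FPKM in every group. With SB-3CT 1 of the 6 was called lower, against 6.87% of all genes. Between both agents and IFNγ 1 was called lower (ABCA1, -0.19, called in none of the rescalings) and 1 higher, where 31.5% and 6.41% of all genes were, and the counts became 0 and 2 after median ratio scaling or quantile normalization and 0 and 1 after removal of the length trend. ABCA1, the main cholesterol exporter to lipid-poor particles, was at 1.39 FPKM in controls, 0.707 FPKM with SB-3CT, 0.762 FPKM with IFNγ and 0.543 FPKM with both. It fell by 0.49 (SE 0.07) with SB-3CT (adjusted p = 0.0128) and by 0.44 (SE 0.06) with IFNγ (adjusted p = 0.00455), in each scaling. Both apolipoprotein genes were called higher in 1 comparison that involved both agents. APOE was at 4.12 FPKM with IFNγ and 6.13 FPKM with both (0.47, SE 0.10, adjusted p = 0.00880), and APOC1 was at 13.3 FPKM with SB-3CT and 23.2 FPKM with both (0.76, SE 0.08, adjusted p = 0.00134), both past the test in each scaling.

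Of 6 uptake, transport and esterification genes, 1 was called lower with SB-3CT, 2 with IFNγ and 2 with both agents against IFNγ, against 6.87%, 11.0% and 31.5% of all genes, and none was called higher on the deposited scale. The last count became 2 lower and 2 higher after median ratio scaling and 1 lower and 0 higher under the other scalings. ARV1, a sterol transport gene, fell by 0.25 (SE 0.05) with SB-3CT (adjusted p = 0.0279) and by 0.23 (SE 0.05) with IFNγ (adjusted p = 0.0172), and each call was kept in 2 of 3 scalings. ANXA2, which encodes a membrane-binding annexin, fell by 0.40 (SE 0.09) with IFNγ (adjusted p = 0.0308), a call kept in 2 of 3 scalings. With both agents against IFNγ, CAV1, the caveolin gene, fell by 0.43 (SE 0.06, adjusted p = 0.00254), a call kept in each scaling, and DAB2, an endocytic adaptor gene, fell by 0.54 (SE 0.11, adjusted p = 0.00896), a call kept in 1 of 3. Both also fell with both agents against SB-3CT (-0.44 and -0.48, adjusted p = 0.00216 and 0.00896).

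AMACR, a racemase needed for bile acid side chains and branched fatty acids, was highest in controls and lowest with both agents, as DHCR7 was. Its means were 21.2 FPKM in controls, 12.4 FPKM with SB-3CT, 12.4 FPKM with IFNγ and 8.45 FPKM with both. It fell by 0.73 (SE 0.05) with SB-3CT (adjusted p = 0.000908), by 0.73 (SE 0.08) with IFNγ (adjusted p = 0.00175), by 0.50 (SE 0.08) with both agents against IFNγ (adjusted p = 0.00416) and by 0.50 (SE 0.06) against SB-3CT (adjusted p = 0.00150). These calls held in each scaling except that of both agents against IFNγ, which held in 2 of 3. It was the only one of 5 oxysterol and bile acid genes called lower in these 4 comparisons, and ACOX2, a peroxisomal oxidase gene, was called higher with both agents against SB-3CT (0.34, adjusted p = 0.0345). Over all genes, 6.87%, 11.0%, 31.5% and 32.7% were called lower in the 4 comparisons, in the order given for AMACR.

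Of 10 genes in the branches of the mevalonate pathway to ubiquinone and dolichol, 1 was called higher with SB-3CT (5.37% of all genes). With IFNγ, 1 was called higher and 1 lower (8.46% and 11.0% of all genes). With both agents against IFNγ, 2 were called lower (31.5% of all genes). The last count became 0 lower and 5 higher after median ratio scaling, 0 and 4 after quantile normalization, and 0 and 0 after removal of the length trend. DHDDS, a dolichol synthesis gene, rose by 0.29 (SE 0.08) with SB-3CT (adjusted p = 0.0495), in each scaling, and was lower with both agents than with SB-3CT (-0.39, adjusted p = 0.0159), but called in none of the rescalings. Among ubiquinone genes, COQ4 rose by 0.21 (adjusted p = 0.0456) and COQ9 fell by 0.18 (adjusted p = 0.0357) with IFNγ, both in each scaling. COQ7 (-0.25) and DOLPP1 (-0.20) were called lower with both agents against IFNγ, a call kept in none of the rescalings, and DOLPP1 was at 0.04 after median ratio scaling. DOLK (-0.34, adjusted p = 0.00405) and DOLPP1 (-0.28, adjusted p = 0.0220) were called lower against SB-3CT, and DOLK kept the call in 1 rescaling and DOLPP1 in none.

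Most calls with SB-3CT alone in these lists were lost in fits with fewer samples, as calls over all genes were in most fits. Without any 1 sample other than SB-3CT replicate 1, 338 lower and 264 higher over all genes became 30 to 38 and 41 to 58. Without SB-3CT replicate 1 they became 610 and 302. Of 6 fits that each left out 1 sample, AMACR kept its call in 6, ABCA1 in 2, ACAT1, ELOVL6, AUP1 and ARV1 in 1 each, and DHDDS in 0. With IFNγ against control, ACSS1, ACAT1, ERLIN1, ABCA1 and AMACR kept theirs in all 6, while ACACA, ABCG1 and ARV1 kept theirs in 2, ABCG4 in 3, and ANXA2, COQ4 and COQ9 in 1. Between both agents and IFNγ, 8 of 13 named genes kept theirs in all 6, and ACLY and ACSS3 did in 3, DOLPP1 in 2, and ABCA1 and COQ7 in 1. Between both agents and SB-3CT, 12 of 18 kept theirs in all 6. ACSS1 did in 5, DHDDS and DOLPP1 in 3, ERLIN2 and ABCG4 in 2, and ACOX2 in 1. Over all genes, 542 lower with IFNγ against control became 286 to 531 in such fits. With both agents, 1547 lower against IFNγ became 1034 to 1646, and 1608 lower against SB-3CT became 1204 to 1443.

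**Figure D4:**
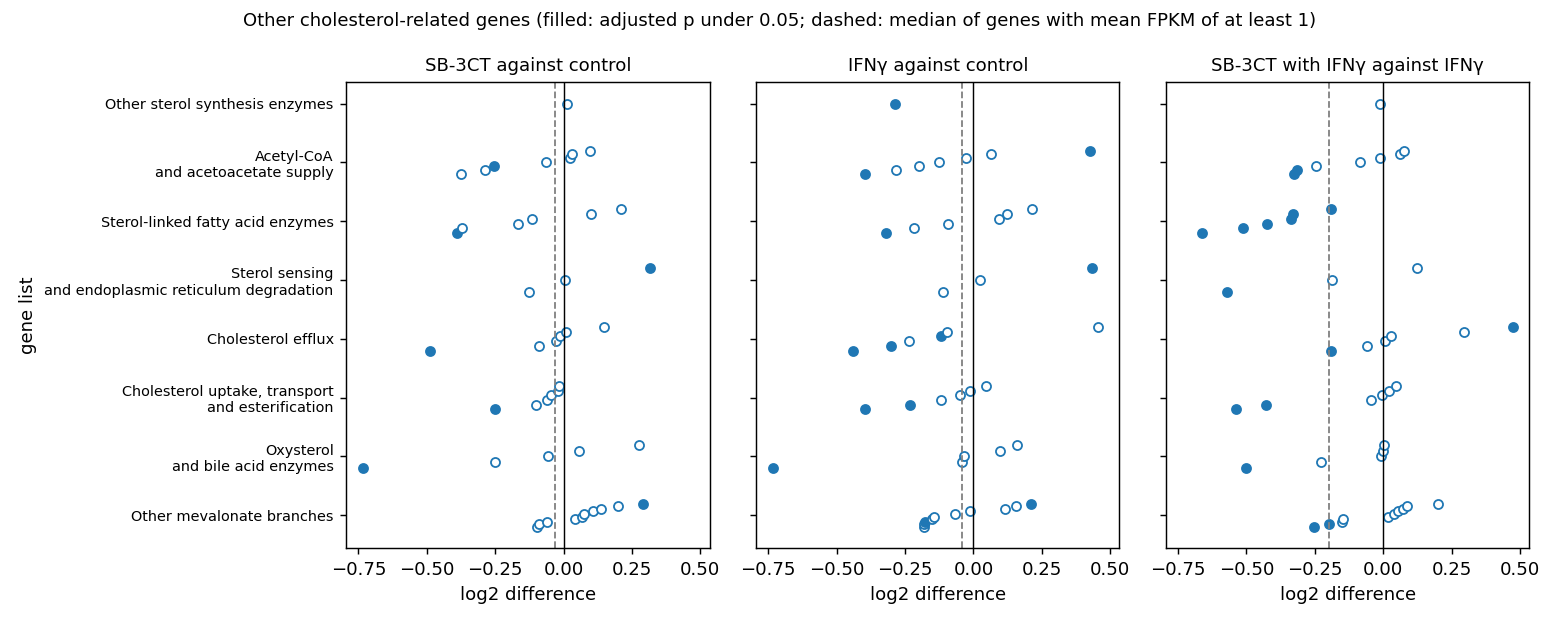
Log2 differences of the other cholesterol-related genes in 3 comparisons, by list; filled points have an adjusted p under 0.05 and the dashed line is the median of genes with a mean of at least 1 FPKM. Filled points lie on both sides of 0 in all 3 panels. In the right panel all 6 fatty acid enzymes are filled below 0 and APOE is filled above it.

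The 5 genes did not follow one common pattern over the 12 samples to the same degree. With each gene centred and divided by its SD, the Pearson correlation with the mean of the 5 was 0.95 for CYP51A1, 0.90 for DHCR7, 0.89 for AACS, 0.89 for ACAT2 and 0.49 for EBP, a mean that includes the gene itself. The 10 genes most like that mean, among those reported here with a mean of at least 1 FPKM, were BMP8B (0.99), CELSR2 (0.99), DAP (0.98), CLCN5 (0.98), FAM107B (0.98), ALDH18A1 (0.98), CREB3L2 (0.98), ADAM23 (0.98), ANKH (0.98) and ANKRD34A (0.98). The samples share the group differences and the scale of the samples with both agents, and after median ratio scaling 3 of these 10 genes were among the 10 most alike. These correlations describe the 12 samples and were not tested.

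**Figure D5:**
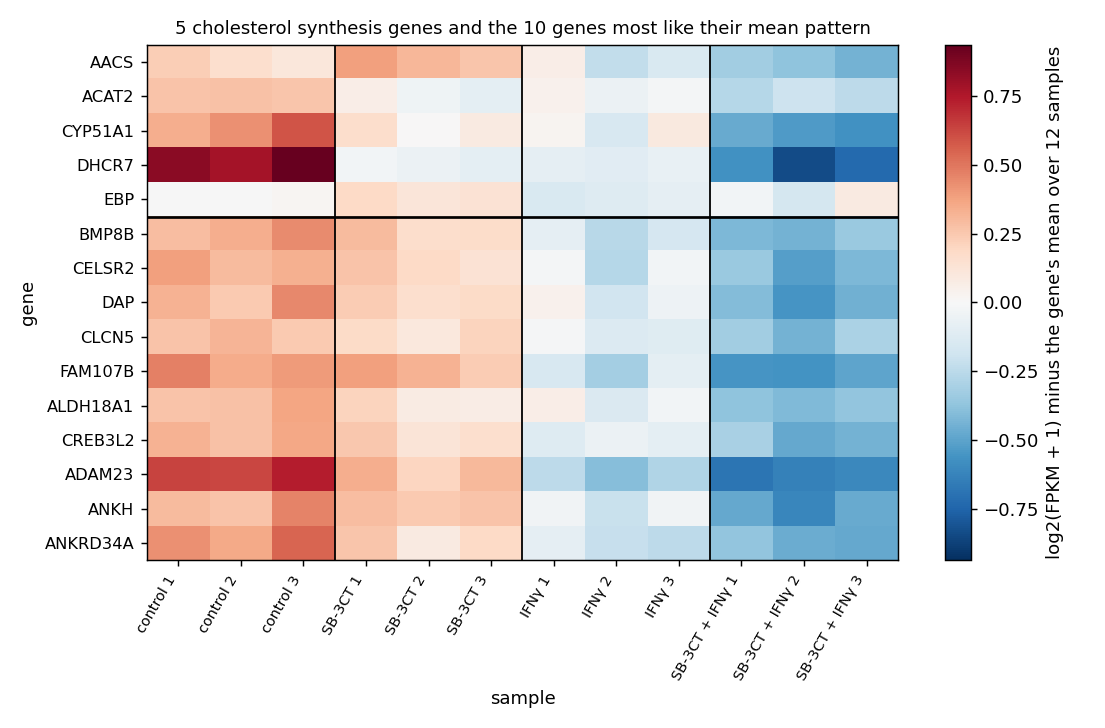
Deposited log2(FPKM + 1) values of the 5 genes and of the 10 genes most like their mean pattern, each minus the gene's own mean over the 12 samples (colour), by sample. DHCR7 has the strongest colours, EBP the palest, and AACS is highest with SB-3CT rather than in controls.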

How the data were processed

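RNA from 12 A375 samples (4 groups, 3 samples each) was sequenced by the authors with 150-base paired-end reads, aligned to hg19 with HISAT2 2.0.5 and quantified with StringTie 1.3.3, as the methods and the submitters' processing notes give it. The values deposited by the authors are log2(FPKM + 1) with no further scaling named, which was read from the values (none below 0, highest 12.16), so no logarithm was taken although the plan had one. Each column was assigned by its name to 1 sample, 0 columns of values were left unused, and 4 columns had neither name nor values.

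Each comparison of 2 groups was a limma fit (version 3.58.1, R 4.3.3; lmFit, then eBayes with a variance trend) of 3 + 3 samples without covariates. The difference of the SB-3CT differences was fitted over all 12 samples. P-values were adjusted over 4918 genes by the Benjamini-Hochberg method, a gene was called at an adjusted p under 0.05, and SDs and SEs refer to n = 3 samples per group. An exact permutation test of 3 against 3 cannot go below p = 0.1. The functions were tested on simulated data. The members and all gene lists were chosen with earlier results of these data known. Named were the 5 genes, C14orf1, up to 3 called genes with the largest differences per other list and comparison, and the 10 genes most like the 5. Other genes named in lists of called members were added after their values were seen. Some genes are not reported here and were left out of the lists, their counts and the ranking of likeness, but stayed in the fits over all genes.

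Transcript positions and lengths came from GENCODE release 44 mapped to GRCh37 (98.5% of genes matched, 417 by an older symbol), and promoters from RefSeq. Relative depth was read from steps in FPKM values below 0.15 over 66 pairs of samples. With absolute depth unknown, no counting error is given. Alternatives were a pseudocount of 0.1, a minimum mean FPKM of 1, 3 scalings, a joint fit of the 4 groups, a replicate block, no variance trend, a rule of fold over 1.5 with unadjusted p under 0.05, and each sample left out, which was added for the named genes of the other lists after seeing the data.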

Additional observations from a re-analysis of the deposited data

Results flagged for a closer look

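The SB-3CT differences with and without IFNγ were of opposite sign in every sample for 1 of the 5 genes. AACS was higher in all 3 SB-3CT samples than in all controls (log2 difference 0.15) and lower in all 3 samples with both agents than in all IFNγ samples (-0.27), which puts the difference between them at -0.43. Under the 3 rescalings the difference with IFNγ was -0.04, -0.05 and -0.03, and the difference between them was -0.23, -0.21 and -0.22. It was not tested, since the choice of genes is treated as having used part of these values.

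For other listed genes, the change with SB-3CT in IFNγ-treated cells minus that in cells without IFNγ was tested in limma over all 12 samples. It was positive for ABCA1 (0.29, SE 0.09, adjusted p = 0.0408) and ARV1 (0.25, SE 0.07, adjusted p = 0.0287). It was negative for ERLIN1 (-0.44, SE 0.09, adjusted p = 0.00729), ACACB (-0.40, SE 0.08, adjusted p = 0.00730) and ACLY (-0.43, SE 0.09, adjusted p = 0.00980). It was also negative for CAV1 (-0.33, adjusted p = 0.0128), FADS2 (-0.43, adjusted p = 0.0169), FADS1 (-0.31, adjusted p = 0.0218), DAB2 (-0.52, adjusted p = 0.0250) and CYP27A1 (-0.50, adjusted p = 0.0414). ABCA1, ARV1, ERLIN1 and ACACB stayed past the test in all 3 rescalings, ACLY in 1, and the 5 others in none. Called lower were 1 of 7 acetyl-CoA supply genes, 3 of 6 fatty acid enzymes, 1 of 3 sterol sensing genes and 1 of 5 oxysterol genes. Of 6 uptake genes 2 were called lower and 1 higher, of 6 efflux genes 1 higher, and of 10 mevalonate branch genes 0. Over all genes, 17.6% were called lower and 4.74% higher, so such calls were also common in the whole table. The median of this difference over genes with a mean of at least 1 FPKM was -0.19. Groups of 3 are too small for the test of single samples that stand apart.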

How the results depend on the processing

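Of 480 recomputed values of single genes, 418 were classed as unchanged. For tested values this meant the same side of the threshold, and an uncalled difference could turn its sign. For the untested values of the 5 genes it meant a shift smaller than the SD within groups. DHCR7 and CYP51A1 were lower in all 4 comparisons of 2 groups under every alternative. By adjusted p, both stayed called with both agents against either agent alone, and DHCR7 also with IFNγ against control. With both agents against IFNγ, the number of the 5 genes called lower went from 4 to 2 after median ratio scaling or quantile normalization. It went to 1 by the fold rule, and the number called higher went from 0 to 1 after median ratio scaling. Over all genes, 1547 lower became 760, 714 and 320 in these settings, and 315 higher became 811 after median ratio scaling. With IFNγ against control, the number of the 5 genes called lower went from 3 to 1 by the fold rule. Leaving out 1 sample gave 3 to 4, 2 to 4 (against control) and 3 to 4 (against SB-3CT). The median over the 5 genes of the SB-3CT difference with IFNγ minus that without went from -0.063 to 0.147 (median ratio scaling), 0.0964 (quantile normalization) and 0.0445 (length trend removed). Signs turned after median ratio scaling for ACAT2 with both agents against IFNγ (0.0209) and against SB-3CT (0.0415), and for C14orf1 against IFNγ (0.22, and 0.19 after quantile normalization, both past the test). CYP51A1 turned in the difference between SB-3CT differences (0.0353 by median ratio, 0.0964 by quantile, 0.0445 by length). C14orf1 turned there too, from -0.0277 to 0.171, 0.160 and 0.112 by the same scalings. EBP with both agents turned to 0.0766 against SB-3CT by median ratio and to -0.0295 against IFNγ by length. In the difference between SB-3CT differences EBP turned to 0.147 by median ratio and 0.0468 by quantile. The cause was not tested.

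Correlations between the deviations of same-numbered samples from their group means ran from -0.395 to 0.172. With 3 samples per group these cannot show whether the numbers pair the samples, and the labels do not say. With the replicate block, 3 of the 5 genes were called lower with both agents against IFNγ and 3 against SB-3CT (adjusted p = 0.0501 for AACS and 0.0613 for ACAT2). Between SB-3CT and control the block called 133 genes lower and 126 higher, against 338 and 264 without it, the fold rule called 28 and 21, and leaving out 1 sample gave 610 and 302 without SB-3CT replicate 1 but 30 to 38 and 41 to 58 without any other. With both agents against IFNγ, 1547 lower and 315 higher became 320 and 47 by the fold rule. With IFNγ against control, 542 and 416 became 76 and 158, and 826 were lower with the length trend removed. Against SB-3CT, 1608 and 386 became 167 and 111, and 834 and 940 were lower after quantile normalization and length trend removal. For the difference between SB-3CT differences, 866 and 233 became 257 and 384 by median ratio, 109 and 52 by the fold rule, and 345 and 224 were lower by quantile and length. Since absolute depth is unknown, the counting error of low genes cannot be given.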
